A study of Mus musculus with 18 samples.

Results

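The Leydig cell genes described here are 10 genes of steroid hormone synthesis and of Leydig cell identity: Star, Cyp11a1, Hsd3b1, Hsd3b6, Cyp17a1, Hsd17b3, Lhcgr, Prlr, Insl3 and Fabp3. They were chosen by name, as known Leydig cell genes, but with earlier results of these data known. All 10 had a row among the 54232 genes of the count table. RNA was measured in round spermatids (RS), the haploid germ cells that follow meiosis, isolated from the testes of mice 75 to 85 days old. The 3 genotypes were WT, GRTH-KO (KO), which lack the RNA helicase GRTH encoded by Ddx25, and GRTH-KI (KI), in which a human GRTH gene with a missense mutation stands in for the mouse gene and no phosphorylated GRTH is made. Each genotype had 6 libraries, made without selection for polyadenylated RNA, and 18766971 to 26776555 counts fell on genes in each. The cells were obtained by a short collagenase digestion meant to remove Leydig cells, followed by trypsin and a gradient. The 10 genes thus belong to a cell type that the isolation was meant to leave out, and the question was whether they rose together within libraries.

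Leydig cells lie between the seminiferous tubules and make testosterone from cholesterol. Luteinizing hormone acts on its receptor Lhcgr, cholesterol is moved into mitochondria by Star, and the enzymes Cyp11a1, Hsd3b, Cyp17a1 and Hsd17b3 turn it into testosterone in steps. GRTH is made in germ cells and also in Leydig cells, and its gene responds to gonadotropin. In bulk RNA of this kind, a different number of Leydig cells and a different amount of RNA per Leydig cell cannot be told apart.

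Among the 10 genes, Hsd3b1 and Hsd3b6 are close relatives that lie next to each other on mouse chromosome 3, so their sequences are shown to let a reader judge whether reads could tell them apart. On GRCm38 the genes occupy chr3:98852194-98859794 and chr3:98805504-98814443, both on the minus strand. Their coding sequences of 1122 bases differed at 112 positions and were 90.02% identical. The longest identical run was 72 bases, and every window of 100 bases held at least 2 differences. The stretch below covers coding bases 55 to 114 of both, at chr3:98857851-98857910 for Hsd3b1 and chr3:98810933-98810992 for Hsd3b6. Capitals mark the 14 positions at which the pair differ.
Hsd3b1: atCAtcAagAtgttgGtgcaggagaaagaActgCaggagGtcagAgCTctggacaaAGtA
Hsd3b6: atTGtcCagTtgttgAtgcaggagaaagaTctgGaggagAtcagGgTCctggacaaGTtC
Only read pairs that mapped to 1 place were counted. A pair that fell wholly within an identical run would not have been counted for either gene.

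The start regions of the same pair were compared base by base without alignment. An inserted or lost base can lower the identity found in this way, so it cannot be set against that of the coding sequences. RefSeq promoter windows on GRCm38.p6 matched 8 of the 10 genes, Star and Cyp17a1 being the exceptions. The 250 bases before the start of Hsd3b1 (chr3:98859795-98860044) and of Hsd3b6 (chr3:98814444-98814693), both minus strand and written 5′ to 3′, were identical at 28.0% of positions without gaps. Capitals mark the letters AGATAA, searched on both strands and known to be bound by Gata4 and its relatives.
Hsd3b1 promoter: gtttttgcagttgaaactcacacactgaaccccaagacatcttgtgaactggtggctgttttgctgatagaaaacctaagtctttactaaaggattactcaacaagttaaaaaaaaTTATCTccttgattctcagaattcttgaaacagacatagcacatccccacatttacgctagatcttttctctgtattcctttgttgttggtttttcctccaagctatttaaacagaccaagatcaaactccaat
Hsd3b6 promoter: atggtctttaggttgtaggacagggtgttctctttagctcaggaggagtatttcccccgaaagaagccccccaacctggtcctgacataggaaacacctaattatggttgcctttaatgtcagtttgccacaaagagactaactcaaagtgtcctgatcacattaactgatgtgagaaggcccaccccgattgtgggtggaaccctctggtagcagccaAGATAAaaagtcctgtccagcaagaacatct
These letters stood on the opposite strand at position -134 in Hsd3b1 and on the same strand at position -31 in Hsd3b6. They were found in 2 of the 11 promoter windows of the 8 genes and in 11.2% of all 32851 windows. The letters CAAGGTCA, bound by NR5A1, the factor that steers steroidogenic genes, were in 0 of the 11 windows against 1.56% of all windows. The shorter AGGTCA, which lies within CAAGGTCA, was in the windows of Cyp11a1 and Lhcgr, and in 16.3% of all windows.

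Libraries were compared with each other before the genes were. The index used was the median squared difference of counts over the amount that counting alone would give, so that 1 is pure counting noise. It was 1.59 for KO 2 and the library labelled KI 4, and 2.12 to 3.001 for KO 4 and 5, WT 1 and 2, KI 1 and 2, KI 3 and 5, WT 3 and 4, and WT 5 and 6. The next pair stood at 4.62. These pairs were closer to each other than to the rest of their genotype, and nothing in the labels says why. Ddx25 was at 538 to 607 CPM in WT, at 47.7 to 90.9 CPM in KO and at 0.0456 to 0.519 CPM in 5 KI libraries. The library labelled KI 4 had 56.9 CPM of Ddx25, within the KO range. It was kept in KI as labelled, and results without KO 2 and the library labelled KI 4 are given beside the main ones. CPM are counts scaled to a common library size with edgeR's TMM factors.

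Star brings cholesterol to the inner mitochondrial membrane, the step that sets the rate of steroid synthesis. It lies at chr8:25806555-25815982 on the plus strand. Its level was 3.49 to 4.64 CPM in WT (median 3.88), 5.94 to 7.73 CPM in KO (median 6.27) and 4.90 to 8.02 CPM in KI (median 6.12). Every KO and every KI library was above every WT library, and the libraries of a genotype lay close together. The rise was the smallest of the 10, with a log2 fold change of 0.72 (SE 0.14, adjusted p = 4.85e-04 by edgeR's quasi-likelihood test for any change) in KO and 0.63 (SE 0.14, adjusted p = 0.00154) in KI.

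Cyp11a1 cuts the side chain of cholesterol to give pregnenolone, the first steroid of the pathway. It lies at chr9:58006411-58027023 on the plus strand. Its level was 0.549 to 2.53 CPM in WT (median 0.816), 2.81 to 8.47 CPM in KO (median 5.01) and 0.982 to 7.86 CPM in KI (median 4.37). KO did not overlap WT, whereas KI did, with KI 1, KI 2 and the library labelled KI 4 at 6.94 CPM or more and the other 3 KI libraries at 1.80 CPM or less. The log2 fold change was 2.23 (SE 0.48, edgeR adjusted p = 0.00149) in KO and 2.04 (SE 0.48, edgeR adjusted p = 0.00299) in KI.

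Hsd3b1 and Hsd3b6 make progesterone from pregnenolone, and Hsd3b6 is the form known from adult Leydig cells. Hsd3b1 was at 0.482 to 2.16 CPM in WT (median 1.21), 2.64 to 5.61 CPM in KO (median 4.93) and 0.841 to 8.54 CPM in KI (median 4.11). Hsd3b6 was at 0.900 to 2.71 CPM in WT (median 1.32), 3.16 to 6.94 CPM in KO (median 5.07) and 1.26 to 8.66 CPM in KI (median 3.93). Both had every KO library above every WT library, and both overlapped WT in KI. In KO the log2 fold change was 1.85 for Hsd3b1 (SE 0.44, edgeR adjusted p = 0.00382) and 1.77 for Hsd3b6 (SE 0.37, edgeR adjusted p = 0.00132). In KI it was 1.78 for Hsd3b1 (SE 0.44, edgeR adjusted p = 0.00462) and 1.59 for Hsd3b6 (SE 0.38, edgeR adjusted p = 0.00302). In both genotypes the rises of the pair differed by less than the SE of either.

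Cyp17a1 turns progesterone into androstenedione, the commitment to androgens. It lies at chr19:46667165-46672974 on the minus strand and took the most counts of the 10 over all libraries. Its level was 2.29 to 6.85 CPM in WT (median 2.84), 9.38 to 22.4 CPM in KO (median 14.96) and 3.27 to 25.7 CPM in KI (median 10.7). The lowest KO library was above WT 6, the highest of WT. In KI, 3 of the 6 libraries were above WT 6. The log2 fold change was 2.09 (SE 0.44, edgeR adjusted p = 0.00125) in KO and 1.89 (SE 0.44, edgeR adjusted p = 0.00266) in KI.

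Hsd17b3 makes testosterone from androstenedione. It lies at chr13:64058266-64089230 on the minus strand and had few counts, 4 to 20 per WT library, 19 to 59 per KO library and 4 to 79 per KI library. Its level was 0.183 to 0.920 CPM in WT (median 0.301), 0.823 to 2.58 CPM in KO (median 1.71) and 0.187 to 3.15 CPM in KI (median 1.67). KO 6 fell below WT 6, so that the KO and WT ranges overlapped, and KI 5 was as low as WT. The log2 fold change was 1.96 (SE 0.50, edgeR adjusted p = 0.00599) in KO and 1.91 (SE 0.50, edgeR adjusted p = 0.00652) in KI.

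**Figure D1:**
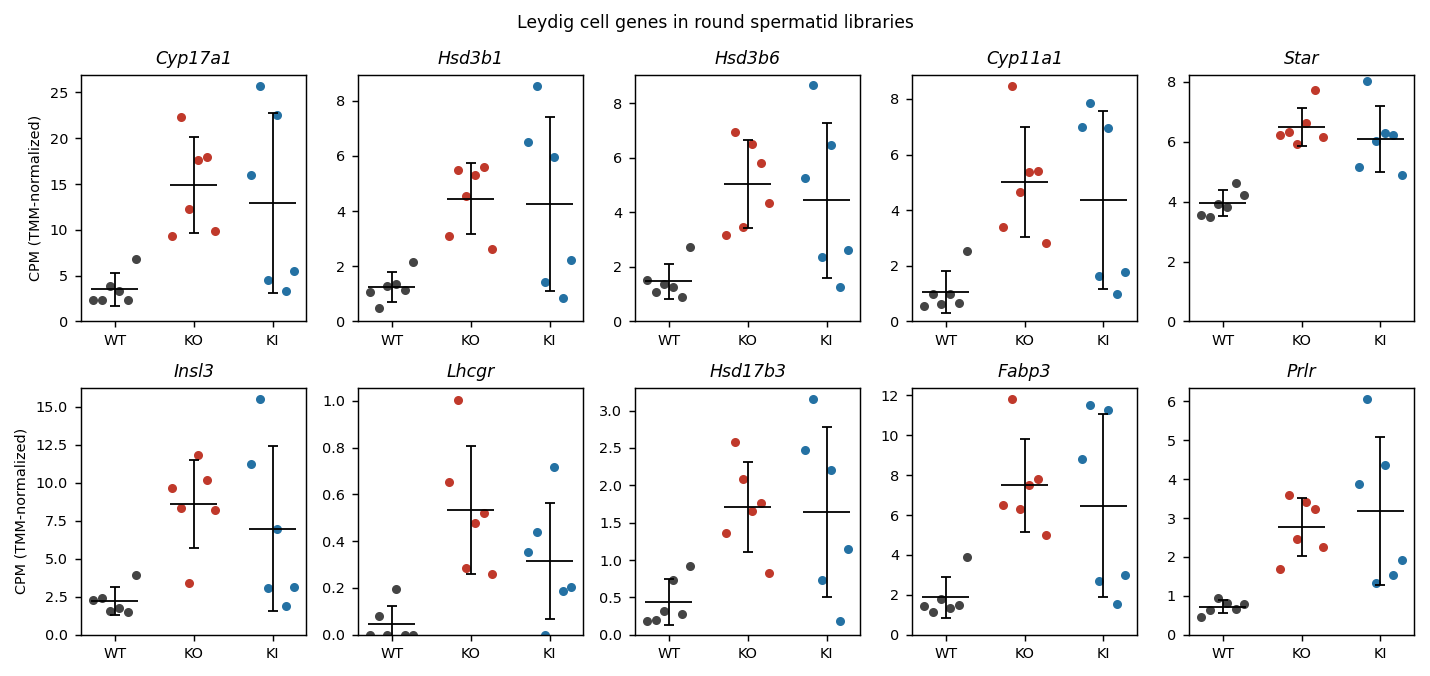
Level of each of the 10 genes in every library, in TMM-normalized CPM on a linear axis from 0, with WT, KO and KI along the horizontal axis. Each point is a library, placed from replicate 1 at the left to 6 at the right, and the lines are the mean and the SD over 6 libraries. In most panels KI has 3 high and 3 low libraries, while the KI libraries of Star lie together at 4.90 to 8.02 CPM.

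Lhcgr is the receptor through which luteinizing hormone drives steroid synthesis. It lies at chr17:88741549-88791976 on the minus strand and was near the limit of counting. WT libraries had 0 counts in 4 of 6 and 2 and 4 counts in the others, KO libraries had 6 to 23 counts and KI libraries 0 to 17. A count of 0 allows up to 3 counts, which is 0.112 to 0.146 CPM on the total counts of a WT library. Every KO library was above every WT library, and 4 of the 6 KI libraries were above the highest WT library. The fitted log2 fold change was 3.37 (SE 0.74, edgeR adjusted p = 0.00175) in KO and 2.65 (SE 0.78, edgeR adjusted p = 0.0155) in KI. At so few counts in WT its size is uncertain, and the 95% confidence interval in KO ran from 1.84 to 4.90. Without KO 2 and the library labelled KI 4 the gene did not pass the filter on low counts and was not tested.

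Prlr is the prolactin receptor, which in Leydig cells is known to raise the number of luteinizing hormone receptors. It lies at chr15:10177238-10349180 on the plus strand. Its level was 0.457 to 0.956 CPM in WT (median 0.722), 1.69 to 3.58 CPM in KO (median 2.86) and 1.32 to 6.07 CPM in KI (median 2.90). Every KO and every KI library was above every WT library, as for Star, and WT 6, high for other genes, lay within the WT range at 0.782 CPM. The log2 fold change was 1.95 (SE 0.34, edgeR adjusted p = 2.24e-04) in KO and 2.15 (SE 0.34, edgeR adjusted p = 6.55e-05) in KI.

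Insl3 encodes a hormone of Leydig cells that guides descent of the testis. It lies at chr8:71689214-71690575 on the plus strand. Its level was 1.52 to 3.91 CPM in WT (median 2.02), 3.37 to 11.8 CPM in KO (median 8.99) and 1.92 to 15.5 CPM in KI (median 5.06). KO 3 was below WT 6, and 3 of the 6 KI libraries were above WT 6. The log2 fold change was 1.94 (SE 0.42, edgeR adjusted p = 0.00162) in KO and 1.64 (SE 0.42, edgeR adjusted p = 0.00562) in KI. Of its 623 exon bases, 404 (64.8%) are shared with Jak3 on the same strand and reads there were not assigned to either gene, so its counts come from the other 219 bases. The overlap with another gene on the same strand was 3.02% of exon bases for Cyp11a1 (with Gm17322) and 1.32% for Prlr (with Gm21973).

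Fabp3 encodes a carrier of fatty acids that is abundant in heart muscle and is also found in Leydig cells. It lies at chr4:130308595-130315463 on the plus strand. Its level was 1.16 to 3.91 CPM in WT (median 1.49), 5.02 to 11.8 CPM in KO (median 6.996) and 1.54 to 11.54 CPM in KI (median 5.90). KO did not overlap WT, and 3 of the 6 KI libraries were above WT 6. The log2 fold change was 2.003 (SE 0.42, edgeR adjusted p = 0.00126) in KO and 1.79 (SE 0.42, edgeR adjusted p = 0.00289) in KI.

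All 10 genes were thus called higher in KO than in WT for a change of any amount, against 16.4% of the 21058 genes tested, and all 10 were called higher in KI than in WT, against 16.1% of the genes tested. Lhcgr, with 0 to 4 counts per WT library, passed the filter only through KO and KI libraries. Hsd17b3, with 4 to 20, did so largely through them. The calls of these genes are thus not independent of the filter. Lower calls made up 13.5% of the genes tested in KO and 15.4% in KI, and DESeq2 also called all 10 genes higher in both. An adjusted p under 0.1 was the threshold, as in all counts here. The median log2 fold change of the 10 genes was 1.96 in KO and 1.84 in KI, beside 0.03 and 0.05 over all genes tested. With scaling to total counts, the medians over all genes were 0.146 and 0.203, and the share of calls that were higher went from 55.0% to 70.8% in KO and from 51.1% to 69.4% in KI. The 10 genes stayed higher under both scalings. Every KO library lay above every WT library for 8 of the 10 genes, as it did for 6.62% of all genes tested, the exceptions being Insl3 and Hsd17b3. Every KI library lay above every WT library for 2 of the 10, Star and Prlr, as it did for 5.97% of all genes tested. KO and KI were compared with the same WT libraries, so these counts are not independent of each other.

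The test for a rise past 1 log2 unit called fewer. With edgeR's glmTreat and with DESeq2 it called 0 of the 10 genes in KO, where 0.598% of all genes tested were called higher by edgeR, although 9 of the 10 had an unadjusted p under 0.05. In KI it called Prlr alone (edgeR glmTreat adjusted p = 0.0740), where 0.522% of all genes tested were called higher. The Prlr call was lost when any 1 of WT 1, 2, 4 or 5, of KI 1 or 2, or the library labelled KI 4 was left out, with adjusted p of up to 0.260. It was also lost without KO 2 and the library labelled KI 4 together (edgeR adjusted p = 0.183). Without that pair of libraries 9 of 9 genes tested stayed higher for any change in KO and in KI, with log2 fold changes of 0.73 (Star) to 2.02 (Cyp11a1) in KO and 0.62 (Star) to 2.04 (Prlr) in KI.

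**Figure D2:**
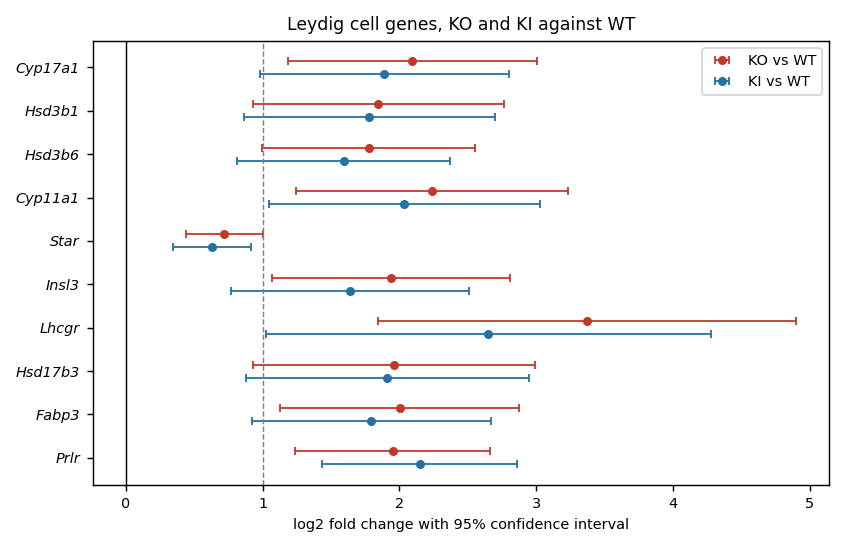
Log2 fold change of the 10 genes in KO and in KI against WT, with the 95% confidence interval of the edgeR fit over 18 libraries. The solid vertical line is at 0 and the dashed line at 1. Every interval lies above 0, Star is lowest (0.72 and 0.63) and Lhcgr is highest with the widest interval (3.37 and 2.65).

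Between KI and KO, edgeR and DESeq2 called 0 of the 10 genes for any change or past 1 log2 unit, beside 0.0997% and 0.00475% of all genes tested with edgeR. The log2 differences of KI from KO ran from -0.72 (Lhcgr) to 0.20 (Prlr), and 9 of the 10 were negative. The smallest adjusted p was 0.961 by edgeR, and the genes with an unadjusted p under 0.05 numbered 0. The 95% confidence intervals reached from -1.82 for Lhcgr to 0.85 for Hsd17b3, and that of Star, the narrowest, from -0.37 to 0.19. Differences within these intervals were not detectable with the spread between these libraries.

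The summed level of the 10 genes set the libraries apart in a way the genotype did not. It was 12.9 to 15.7 CPM in 5 WT libraries and 28.0 CPM in WT 6. It was 42.3 to 76.9 CPM in KO, with KO 2 highest. In KI it was 95.6 CPM in KI 2, 73.8 CPM in the library labelled KI 4 and 66.7 CPM in KI 1, and 26.4, 23.7 and 17.9 CPM in KI 6, KI 3 and KI 5. The sum varied by 5.32 times between libraries within KI, by 1.82 times within KO and by 2.18 times within WT. KI 3, KI 5 and KI 6 thus lay below WT 6 and above the other WT libraries, while all KO libraries lay above WT 6.

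Within a genotype, the libraries that were high for 1 gene were mostly high for the others. WT 6 was the highest WT library for 7 of the 10 genes, KO 2 the highest KO library for 7, KI 2 the highest KI library for 9, and KI 5 the lowest KI library for 7. The log2 CPM of each gene, with the mean of its genotype removed, was set against the mean of the other 9 genes over the 18 libraries. Pearson's r was 0.98 for Cyp17a1 and 0.88 to 0.95 for Fabp3, Cyp11a1, Hsd3b1, Hsd3b6, Prlr and Hsd17b3. It was 0.79 for Insl3, 0.54 for Lhcgr and 0.35 for Star, and the median was 0.91 (Spearman's rho 0.87). These correlations are a description, since close libraries are not independent and all genes share the scaling of their library.

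**Figure D3:**
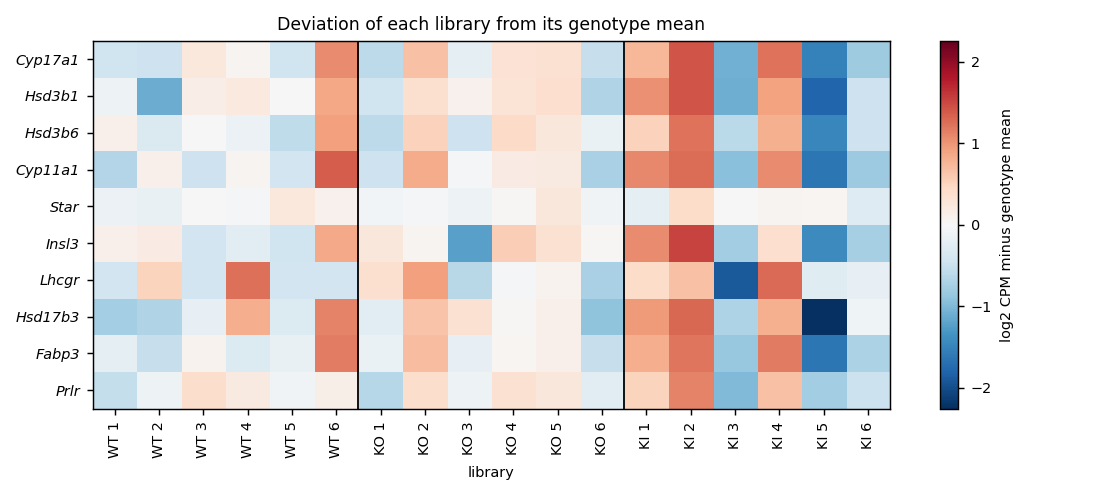
Log2 CPM of each of the 10 genes (rows) in each of the 18 libraries (columns) minus the mean of its genotype, with red above and blue below the mean and black lines between genotypes. WT 6, KO 2, KI 1, KI 2 and the library labelled KI 4 are red and KI 3, KI 5 and KI 6 blue in most rows, while the row of Star is pale throughout (r = 0.35 with the other genes).

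The common movement was seen within each genotype, with the highest median in KI. The median r over the 10 genes was 0.98 within KI, 0.82 within KO and 0.73 within WT, each over 6 libraries. The lowest was Star in KI (0.35), Insl3 in KO (0.23) and Lhcgr in WT (-0.13). In WT, where WT 6 stood highest, the median Spearman's rho was 0.37. With close pairs averaged to 12 values the median r was 0.94, and without KO 2 and the library labelled KI 4 it was 0.89. Without KI 2 and KI 5, the libraries farthest from the median, r was 0.97 for Cyp17a1, 0.82 to 0.92 for the next 6 genes, 0.63 for Insl3, 0.57 for Lhcgr and 0.25 for Star.

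Ratios between pairs of libraries differed from gene to gene. WT 5 and WT 6 were close over all genes, yet WT 6 held 3.82 times the Cyp11a1 of WT 5, 3.24 times the Hsd17b3, 3.02 times the Hsd3b6, 2.95 times the Cyp17a1, 2.58 times the Insl3 and 1.90 times the Hsd3b1. For Prlr it held 1.18 times and for Star 0.912 times the level of WT 5. KI 2 held 6.86 to 10.2 times the level of KI 5 for Hsd3b6, Fabp3, Cyp17a1, Cyp11a1, Insl3 and Hsd3b1, 16.9 times for Hsd17b3 (4 counts in KI 5), 3.93 times for Prlr, 2.35 times for Lhcgr (4 counts in KI 5) and 1.29 times for Star. KO 2, with the highest sum in KO, held 1.59 to 3.87 times the level of KO 6, the lowest, for 8 genes, but 1.02 times for Insl3 and 1.03 times for Star. For KO 2 over the library labelled KI 4, the closest pair of the series, the ratios ran from 0.821 (Prlr) to 1.40 (Lhcgr).

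The share of each gene in the counts of the 10 showed which genes kept their proportion between genotypes. Cyp17a1 made up 21.02% of them in WT, 26.3% in KO and 25.6% in KI. Insl3 made up 13.7%, 15.1% and 13.8%, Fabp3 11.3%, 13.02% and 12.8%, and Hsd3b6 8.93%, 8.93% and 8.78%. Cyp11a1 made up 6.49%, 8.78% and 8.61%, Prlr 4.33%, 4.90% and 6.28%, and Lhcgr, with few counts, 0.282%, 0.916% and 0.6252%. Star went the other way, with 23.9% in WT, 11.3% in KO and 11.8% in KI. Within KI the share of Star ran from 7.75% to 34.6%, with the high end in KI 5, the library with the lowest sum. The level of Star thus varied less than that of the other 9 genes between libraries that differed in their sum.

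Per kilobase of exon the order of the 10 genes was nearly the same in every genotype. Insl3 was highest, with a level of 3.59 ± 1.45 CPM per kb in WT (SD, n = 6), 13.8 ± 4.62 in KO and 11.2 ± 8.70 in KI. Fabp3 came next (2.27 ± 1.24, 9.11 ± 2.85 and 7.87 ± 5.57 CPM per kb), then Cyp17a1 (1.61 ± 0.815, 6.88 ± 2.40 and 5.97 ± 4.56 CPM per kb). The means of neighbours among these 3 differed by about their SDs or less within each genotype. These SDs are between libraries, over which the genes moved together. Compared within single libraries, Fabp3 was above Cyp17a1 in every one. Insl3 was above Fabp3 in all but KO 2, KO 3 and the library labelled KI 4. Star came next in WT (0.960 ± 0.105 CPM per kb), whereas in KO (1.58 ± 0.157 CPM per kb) and KI (1.48 ± 0.268 CPM per kb) it stood below Hsd3b6 and Hsd3b1. Hsd17b3, Cyp11a1, and then Prlr and Lhcgr followed. For Insl3 the length includes the bases shared with Jak3, so that its level per kilobase is too low.

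Other markers of Leydig cells, from a list of 13 of which 9 passed the filter, were mostly higher in KO and KI. In KO and in KI 7 of the 9 were called higher and 1 lower, with median log2 fold changes of 1.25 and 1.20. Over all genes tested, 16.4% were called higher and 13.5% lower in KO, and 16.1% and 15.4% in KI. Ptgds, a prostaglandin synthase, rose by 1.97 (SE 0.45, edgeR adjusted p = 0.00272) in KO and 1.70 in KI. Vcam1, an adhesion molecule, rose by 1.56 in KO (SE 0.28, edgeR adjusted p = 3.08e-04) and 1.502 in KI, and Itih2 by 1.61 and 1.45. Gstm1, a glutathione transferase and per kilobase the most abundant of the list over the 3 genotypes, was at 6.78 ± 1.16 CPM in WT (SD, n = 6), 16.1 ± 4.54 in KO and 15.8 ± 7.38 in KI. Tsx, which is also known from Sertoli and germ cells, fell by 0.95 (SE 0.28, edgeR adjusted p = 0.0173) in KO. The mean of the list followed the mean of the 10 genes over libraries with r = 0.92, but its members did so unequally. Vcam1, Gstm1, Aldh1a1, Itih2 and Ptgds had r of 0.75 to 0.97, whereas Gsta4 had 0.39, Hpgd 0.32, Tsx -0.18 and Thbs2 -0.44, although Hpgd and Thbs2 were called higher. Ren1, renin, did not pass the filter, at 0.373 CPM in WT, 0.396 CPM in KO and 0.286 CPM in KI. Cyp2a5 and Slco1a5 of the list stayed at or below 0.229 CPM in every library and were not tested.

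The rest of the steroid pathway moved less. Of 11 other steroid enzymes tested, 3 were called higher in KO and 3 in KI, with median log2 fold changes of 0.40 and 0.24. Higher calls made up 16.4% of all genes tested in KO and 16.1% in KI. Sult1e1, the estrogen sulfotransferase known from Leydig cells, was at 0.223 ± 0.163 CPM in WT, 1.76 ± 0.934 CPM in KO and 1.52 ± 1.05 CPM in KI (SD, n = 6 each). Its rise of 2.95 (SE 0.51) in KO was past 1 log2 unit (edgeR glmTreat adjusted p = 0.0344), as was that of 2.74 in KI (edgeR glmTreat adjusted p = 0.0721). With 3 to 12 counts per WT library, Sult1e1 passed the filter largely through KO and KI libraries. Cyp21a1 and Hsd17b7 were the other enzymes called, by 0.91 and 0.77 in KO. Per kilobase the most abundant of the list over the 3 genotypes, Hsd17b4, an enzyme of peroxisomes in many cell types, had a log2 fold change of 0.003 in KO and 0.09 in KI, and neither was called. Of 6 electron donors to steroid P450 enzymes, 2 were called higher in KO (Cyb5r3 by 0.54 and Por, per kilobase the most abundant over the 3 genotypes, by 0.49) and 3 in KI. Over libraries the mean of the other steroid enzymes had r = 0.60 with the 10 genes, and that of the electron donors r = 0.78. Among the enzymes r ran from -0.74 (Cyp19a1) to 0.91 (Sult1e1).

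Genes that supply cholesterol held higher and lower calls. Of 19 tested, 6 were called higher and 2 lower in KO, and 5 higher and 2 lower in KI, with medians of 0.20 and 0.25. Of all genes tested, 16.4% were called higher and 13.5% lower in KO, and 16.1% and 15.4% in KI. The lower calls of the list did not exceed these shares. Npc1, which moves cholesterol out of lysosomes, rose by 0.75 (SE 0.23, edgeR adjusted p = 0.0220) in KO. Lipe, hormone-sensitive lipase, was at 263 ± 31.2 CPM in WT, 71.4 ± 18.02 CPM in KO and 61.8 ± 4.37 CPM in KI (SD, n = 6 each). Its fall was past 1 log2 unit in both genotypes (edgeR glmTreat adjusted p = 4.70e-04 and 2.84e-05), as that of 1.13% and 1.43% of all genes tested. Over libraries the mean of the list had r = 0.82 with the 10 genes. Lipe did not move with them (r = 0.01), and it is also known from spermatids. Sqle, per kilobase the most abundant of the list over the 3 genotypes, was at 140 ± 22.1 CPM in WT and was not called.

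Of 25 regulators and signalling genes tested, 8 were called higher and 2 lower in KO, and 7 higher and 3 lower in KI, with medians of 0.15 and 0.24. The shares over all genes tested were 16.4% higher and 13.5% lower in KO, and 16.1% and 15.4% in KI. The lower calls did not exceed these shares. Esr1, the estrogen receptor, rose by 1.42 (SE 0.24, edgeR adjusted p = 1.73e-04) in KO and 1.28 in KI. Igf1 rose by 1.21 (SE 0.16, edgeR adjusted p = 1.19e-05) in KO and 1.18 in KI, and Pdgfra, a receptor of stromal and Leydig precursor cells, by 0.78 and 1.04. Igf1 and Pdgfra did not follow the 10 genes over libraries (r = -0.12 and -0.11), whereas Esr1 did in part (r = 0.53) and Igf1r (0.77), Prkaca (0.75) and Jak2 (0.74) did more closely. The mean of the list had r = 0.68. Crem, a transcription factor of spermatids, fell by 0.60 in KO and 0.73 in KI, Gata6 fell by 1.21 in KI, and Nr0b1 fell by 0.75 in KO. Pde8a, per kilobase the most abundant of the list over the 3 genotypes, was not called.

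Markers of other cells that the isolation could hold did not move as 1 group. Their calls stand beside 16.4% higher and 13.5% lower of all genes tested in KO, and 16.1% and 15.4% in KI. Macrophages lie beside Leydig cells, and 3 of 10 markers tested were called higher and 1 lower in KO, and 4 higher and 1 lower in KI. Their summed level was 10.5 to 22.8 CPM in WT, 12.8 to 30.6 CPM in KO and 18.2 to 33.2 CPM in KI, and r with the 10 genes was 0.43. The sum was highest in KO 2 within KO and in the library labelled KI 4 within KI, where KI 5 was lowest. Csf1r rose by 0.72 in KO and 1.24 in KI and C1qc by 1.03 and 1.11, while C1qb fell by 1.20 and 0.96. Of 6 endothelial markers 3 were called higher in KO and 2 in KI, with sums of 11.4 to 18.1, 17.7 to 30.2 and 20.6 to 28.9 CPM in WT, KO and KI, and r was 0.01. Tek rose by 1.62 in KO and 1.33 in KI, and Vwf by 0.85 and 0.82.

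Of 6 peritubular myoid markers 2 were called higher and 2 lower in KO, and 1 higher and 2 lower in KI. For these and the Sertoli cell markers, the shares over all genes were 16.4% higher and 13.5% lower in KO, and 16.1% and 15.4% in KI. Cnn1 rose by 2.43 in KO and 1.76 in KI, from 0.136 CPM in WT, while Myh11 fell by 1.54 and 1.73 and Actg2, at 250 ± 38.7 CPM in WT (SD, n = 6), fell by 1.35 and 1.59. Their sum, 202 to 305 CPM in WT against 39.6 to 145 in KO and 70.6 to 104 in KI, was mostly Actg2, and r was 0.26. The WT means of Acta2, Myh11, Tagln and Tpm2 were 1.07, 2.63, 1.67 and 0.537 CPM, far below that of Actg2. Which cells the Actg2 RNA came from was not tested, so the fall of the sum is not a measure of myoid RNA. Of 12 Sertoli cell markers, 3 were called lower in KO and 2 in KI by edgeR, and 0 were higher even at an unadjusted p under 0.05, while Wt1, a factor of Sertoli cells, fell by 0.62 and 0.78. Their sum was 29.5 to 48.6 CPM in WT, 19.5 to 42.1 in KO, highest in KO 2, and 27.4 to 41.5 in KI, highest in the library labelled KI 4 and lowest in KI 5, while the mean log2 level of the tested markers had r of -0.04. Of 2 blood markers tested, Alas2 fell by 1.64 in KO and 1.32 in KI and Hbb-bs rose by 0.75 in KI, with r of -0.03.

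Spermatogonial markers moved with the 10 genes over libraries. Of 6 tested, Stra8 alone was called, beside 16.4% and 16.1% of all genes tested that were called higher in KO and in KI. It marks entry into meiosis and was higher by 1.23 (SE 0.27, edgeR adjusted p = 0.00208) in KO and by 0.71 (SE 0.27, edgeR adjusted p = 0.0621) in KI. Their mean had r = 0.84 with the 10 genes over libraries. Their sum was 23.6 to 29.2 CPM in WT, 24.3 to 51.6 CPM in KO, highest in KO 2, and 16.5 to 53.2 CPM in KI, highest in the library labelled KI 4 and lowest in KI 5. Of 10 RS markers 2 were called lower in KO and 5 in KI, beside 13.5% and 15.4% of all genes tested. Tssk2 among them fell by 1.16 and 1.44. The RS markers summed to 930 to 1536 CPM in WT, 591 to 1415 in KO and 642 to 914 in KI. Their r with the 10 genes was 0.09. The logarithm of the total counts had r = 0.49. The part of these other cells and of depth in the levels of the 10 genes was not tested.

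**Figure D4:**
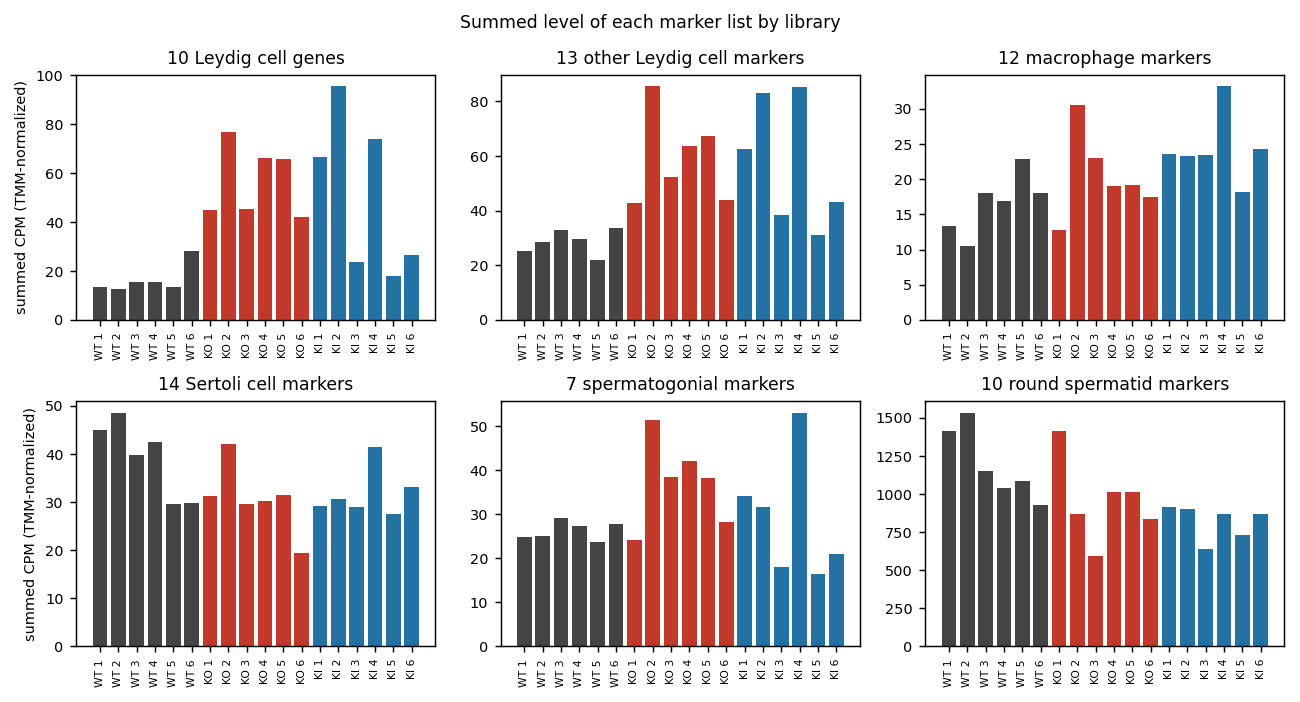
Summed level of 6 marker lists in every library, in TMM-normalized CPM on axes that start at 0, with WT in grey, KO in red and KI in blue. Within KO both Leydig panels and the spermatogonial panel are highest in KO 2, and within KI all of them are lowest in KI 5. Within KI the Leydig panel is highest in KI 2 (95.6 CPM). The spermatogonial panel is highest in the library labelled KI 4 (53.2 CPM), with 31.7 CPM in KI 2. Most WT libraries are below KI 5 in the Leydig panel. The Sertoli panel is also highest in KO 2 within KO (42.1 CPM) and in the library labelled KI 4 within KI (41.5 CPM). The macrophage panel is highest in the same libraries (30.6 and 33.2 CPM).

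The genes whose movement over libraries was most like that of the 10 were sought among 16896 genes with a mean of at least 1 CPM. The highest r with the mean of the 10 genes, over 18 libraries and with genotype means removed, was that of Vcam1 (0.97), and among the next were Agt (0.96), Ephx1 (0.95), Gstm1 (0.94), Aldh2 (0.94), Acly (0.93), Acsbg1 (0.93), Akr1cl (0.93) and Psme1 (0.93). The median r over all candidates was 0.15 and the 99th percentile 0.82. Agt is angiotensinogen and Ephx1 the microsomal epoxide hydrolase. Between genotypes, which this choice did not use, all of those named but Acly were called higher for any change in KO, with log2 fold changes of 0.81 (Aldh2) to 2.02 (Ephx1). Acly, at 0.37, was not called in KO (edgeR adjusted p = 0.137). In KI all of those named were called higher, from 0.43 (Acly) to 1.98 (Ephx1). Over all genes tested, 16.4% were called higher in KO and 16.1% in KI.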

How the data were processed

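RS mRNA was sequenced from WT, KO and KI testes. The authors trimmed reads with cutadapt 3.4, aligned them to GRCm38 (mm10) with STAR 2.7.8a and counted uniquely mapped read pairs by strand on GENCODE M18 genes with featureCounts (Subread 2.0.1), duplicates kept. They deposited raw counts, with gene lengths, which were used unchanged, and 0 columns of values were without a library. Symbols came from GENCODE M21 and matched 54079 of 54232 identifiers. Groups came from the labels, which do not say whether libraries came from separate animals, so p-values measure the spread between libraries, which may be technical. Floors cover counting error only, and reads carried no molecular identifiers. The confidence intervals come from the edgeR fit and so also include the spread between libraries.

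Counts were analysed in R 4.3.3 with edgeR 4.0.16 (limma 3.58.1). filterByExpr left 21058 genes, TMM factors were used, and 1 quasi-likelihood fit by genotype covered all 18 libraries. glmQLFTest tested any change and glmTreat (worst-case null) a change past 1 log2 unit, with Benjamini-Hochberg adjusted p under 0.1. Each SE was the size of the log2 fold change over the square root of the glmQLFTest F statistic. Confidence intervals were built from that SE. Both are approximate where counts are few, as for Lhcgr. A level of 3 counts was the floor. Co-variation used log2 CPM with a prior count of 2. The code was tested on simulated data. Figures used matplotlib 3.10.9.

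The 10 genes, the marker lists and the tests were chosen with earlier results of these data known. Named genes were the 10, the 3 largest called rises and falls and the most abundant gene per kilobase of each list, and the 10 genes most like the 10 over libraries. Some genes that this rule selects are not reported here, and Aldh1a1, Cyp2a5, Slco1a5, Gsta4, Hpgd, Thbs2, Ren1, Igf1r, Prkaca and Jak2 were named after their values were seen. The alternatives were DESeq2 1.42.0, its size factors, total counts, no filter or a minimum of 10 counts throughout, fitting only the genotypes compared, the replicate block, an adjusted p of 0.05, a prior count of 0.5, close pairs summed or averaged, and libraries left out. The interval null of glmTreat and leaving out WT 5 and WT 6 were added after the data were seen.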

Additional observations from a re-analysis of the deposited data

Results flagged for a closer look

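WT 6 stood apart from the other WT libraries by Dixon's test at the 95% level for 5 of the 10 genes and for their sum. Its level was 6.85 CPM for Cyp17a1 (next highest WT library 3.82), 2.53 CPM for Cyp11a1 (next 1.004), 2.71 CPM for Hsd3b6 (next 1.51), 3.91 CPM for Insl3 (next 2.41) and 3.91 CPM for Fabp3 (next 1.81). The sum of the 10 genes was 28.0 CPM in WT 6 against 15.7 CPM in the next library. These were 6 of 33 groups examined, all in 1 library. Chance alone marks about 1 group in 20 where groups are independent. The genes moved together over libraries and the sum is made of them. The flags are thus not independent, and their number cannot be set against chance. Leaving out WT 5 and WT 6, chosen after the data were seen, kept all 10 genes higher in KO and in KI for any change (largest edgeR adjusted p = 0.0560, Lhcgr in KI).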

How the results depend on the processing

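All 10 genes kept their direction and their call for any change against WT under each alternative in which they were tested, leaving out any 1 library included. 8 genes were tested with at least 10 counts in every library, and Lhcgr was not tested in several other settings. The number past 1 log2 unit in KI, 1 with the main settings, was 0 at an adjusted p of 0.05, with the replicate block, without KO 2 and the library labelled KI 4, with close pairs summed, and without WT 5 and WT 6, and 0 to 1 with any 1 library left out. In KO, 0 with the main settings, it was 1 with total counts, 1 with the replicate block, 5 when only the genotypes compared were fitted, 4 with the interval null, and 0 to 1 with any 1 library left out. The cause was not tested. Same-numbered libraries did not pair (r of deviations -0.37 to 0.41 between KO and WT, -0.53 to 0.47 between KI and WT, -0.14 to 0.55 between KI and KO), and with the replicate block 6265 genes were called in KO for any change against 6297. Summing close pairs left 3655 genes called in KO for any change and 253 past 1 log2 unit against 365, with fewer samples, and 3402 and 247 in KI against 6644 and 411. The interval null called 516 in KO and 594 in KI. Differences between KI and KO, none of them called, changed sign for Hsd17b3 (0.019 without a filter, 0.014 when only the genotypes compared were fitted, 0.0093 without KO 2 and the library labelled KI 4, 2.63e-05 without WT 5 and WT 6) and for Hsd3b1 (0.0011 with close pairs summed). With any 1 library left out they ran from -0.39 to 0.15 for Hsd3b1, -0.49 to 0.0085 for Hsd3b6, -0.45 to 0.014 for Cyp11a1, -0.34 to 0.18 for Hsd17b3 and -0.095 to 0.35 for Prlr. Depth limits Lhcgr and Hsd17b3 most.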
